A study of Homo sapiens with 12 samples.

Results

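Noncoding RNAs made by RNA polymerase III were looked up by gene symbol in the exon counts of 12 total RNA libraries: RMRP, RPPH1, RN7SK, RN7SL1, RN7SL2 and VTRNA1-1. Of these 6, 3 (RMRP, RPPH1 and VTRNA1-1) were among the 26364 symbols counted, and RN7SK, RN7SL1 and RN7SL2 were not analysed here. RMRP drew 167002 to 538979 reads per library and RPPH1 116735 to 359944, whereas VTRNA1-1 drew 1 to 36. RPPH1 rose under the topoisomerase 1 inhibitor camptothecin (CPT) in 4 of 4 matched pairs of libraries, VTRNA1-1 fell in 4 of 4, and RMRP did not pass the test. Of all 13993 genes tested under CPT, 48.3% passed. VTRNA1-1 also fell in 4 of 4 pairs with the topoisomerase 2 inhibitor ICRF193, against the same libraries without inhibitor.

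The cells were HCT116, a human colon cancer line. WT cells were compared with a p65-deficient derivative, which lacks the NF-κB subunit encoded by RELA; the labels call it shRNA p65, and the study's methods describe 1 clone made with CRISPR-Cas9. Each line received no inhibitor, 5 µM CPT or 5 µM ICRF193, a topoisomerase 2 inhibitor, for 2 h, and was then collected without TNFα (0 h) or after 1 h with TNFα at 20 ng/mL. Every combination of line, inhibitor and TNFα was 1 library, so no condition had a replicate. Matched pairs of libraries that differed in 1 labelled factor took the place of replicates, and p-values measure how far those pairs agreed. The labels give 2 h of inhibitor at both times, and the paper describes TNFα as added after these 2 h. Total inhibitor time may thus differ between 0 h and 1 h libraries with inhibitor, where it and TNFα cannot be told apart.

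RNA polymerase III transcribes short, untranslated RNAs, among them tRNAs, 5S rRNA and U6 snRNA, while polymerase II transcribes messenger RNAs and most other snRNAs. RMRP is the RNA subunit of RNase MRP, an enzyme that cuts precursor ribosomal RNA, and RPPH1 is the RNA subunit of RNase P, which removes the leader from precursor tRNAs. The RMRP and RPPH1 genes have their promoter upstream of the transcript, whereas vault RNA genes such as VTRNA1-1 carry A and B boxes inside it and their product joins the vault, a large ribonucleoprotein of the cytoplasm.

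In hg19, the build of the files, RMRP was the single exon chr9:35657748-35658015 on the minus strand (268 bases), RPPH1 the single exon chr14:20811230-20811570 on the minus strand (341 bases), and VTRNA1-1 the single exon chr5:140090861-140090958 on the plus strand (98 bases). No other counted gene spanned any of these 3 exons. The transcripts below, from GENCODE release 29 on GRCh38, show what sets the vault RNAs apart in sequence from the 2 ribozyme subunits; RPPH1 is given from base 1 to base 300 of 333. Also shown are VTRNA1-3, a second vault RNA, and RNU6ATAC, the polymerase III snRNA of the minor spliceosome, because their CPT values are set beside those of VTRNA1-1. Capitals mark matches to the B box pattern on the strand shown.
RMRP: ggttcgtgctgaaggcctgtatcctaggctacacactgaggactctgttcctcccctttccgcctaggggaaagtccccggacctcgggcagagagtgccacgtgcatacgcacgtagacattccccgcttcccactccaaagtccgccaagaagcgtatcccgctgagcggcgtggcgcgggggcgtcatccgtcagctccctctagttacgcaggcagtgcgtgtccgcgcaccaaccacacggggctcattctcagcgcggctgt
RPPH1: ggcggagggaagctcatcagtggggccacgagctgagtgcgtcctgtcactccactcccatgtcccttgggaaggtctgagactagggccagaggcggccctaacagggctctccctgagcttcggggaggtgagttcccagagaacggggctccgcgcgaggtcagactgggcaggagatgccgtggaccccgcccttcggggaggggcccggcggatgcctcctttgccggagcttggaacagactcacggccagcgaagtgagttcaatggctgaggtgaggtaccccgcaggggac
VTRNA1-1: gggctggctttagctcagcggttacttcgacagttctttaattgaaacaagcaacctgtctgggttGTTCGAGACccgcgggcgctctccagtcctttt
VTRNA1-3: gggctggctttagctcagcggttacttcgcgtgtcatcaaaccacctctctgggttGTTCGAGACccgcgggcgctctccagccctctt
RNU6ATAC: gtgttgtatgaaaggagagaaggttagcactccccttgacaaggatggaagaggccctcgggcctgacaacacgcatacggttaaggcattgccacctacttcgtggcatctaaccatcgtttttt

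The B box was searched as GTTCNANNC on both strands. VTRNA1-1 matched it at bases 67 to 75 and VTRNA1-3 at bases 57 to 65. RMRP and RNU6ATAC had no match, and RPPH1 had 1 match on its antisense strand, which is not capitalised. Among 203760 GENCODE transcripts, 2.69% held the pattern on either strand within their first 99 bases. None of the 233 stretches of 36 bases in RMRP and none of the 64 in VTRNA1-1 occurred in a transcript of another gene. All 298 of RPPH1 recurred in AL355075.4, a GENCODE gene that was not among the counted symbols, and 66 of the 91 of RNU6ATAC recurred in its pseudogenes, so the RNU6ATAC count is uncertain.

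Between 16300210 and 22051046 reads were counted in the 6 WT libraries and between 8101212 and 20524958 in the 6 p65-deficient libraries, of which 4 held fewer than any other library. RELA, the targeted gene, ranged from 48.1 to 64.2 CPM (counts scaled to library size by the trimmed mean of M-values, TMM) in WT and from 39.1 to 46.7 in p65-deficient libraries, without overlap. Of the p65-deficient libraries, those at 0 h without inhibitor (20524958 reads) and with CPT (18502365) were deeper than the other 4 (8101212 to 8755001). RMRP stood at 23123 and 25677 CPM in the deeper libraries and at 18615 to 21249 in the others. This depth difference falls within the p65-deficient TNFα pairs without inhibitor and with CPT, and within the 0 h pairs with ICRF193. There depth and treatment cannot be told apart. Results of RMRP, RPPH1 and VTRNA1-1 that moved without the pair of the p65-deficient library with neither inhibitor nor TNFα are also given without it. A fall in bulk RNA cannot separate fewer cells with an RNA from less of it per cell.

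RMRP was the most-read gene in all 12 libraries. RMRP took 1.91% to 2.56% of the counted reads and RPPH1 1.14% to 1.95%, and the 3 RNAs together took 3.25% to 4.51%. Per kilobase of exon, the median over 12 libraries was 87068 RPKM (the CPM divided by exon length in kilobases) for RMRP and 41543 for RPPH1, and their ranges did not overlap (69460.2 to 95808 and 34549 to 57173). VTRNA1-1 had a median of 5.34 RPKM and a range of 1.14 to 19.9, below the 75.3 to 131 of VTRNA1-3, which is encoded on the same chromosome. The order of reads per kilobase was thus RMRP, RPPH1, VTRNA1-3 and VTRNA1-1 in each library. Whether the libraries recovered RNAs of 88 and 98 bases as well as those of 268 and 341 was not tested. This order is therefore one of reads, not of amounts in the cell. Counting error, given below as 95% Clopper-Pearson intervals, was small for RMRP and RPPH1 and wide for VTRNA1-1; without molecular identifiers these intervals cover counting error only.

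**Figure D1:**
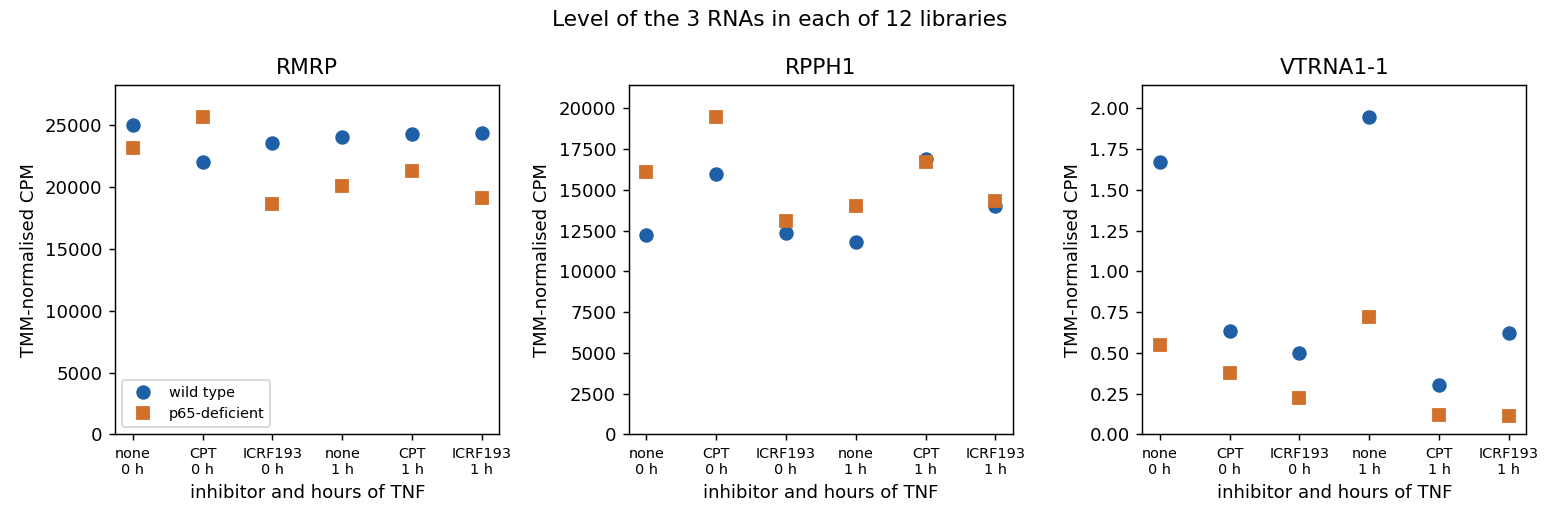
TMM-normalised CPM (linear axes from 0) of RMRP, RPPH1 and VTRNA1-1 in each of 12 libraries, by inhibitor and hours of TNFα, circles for WT and squares for the p65-deficient clone. The 4 RPPH1 values with CPT (16004 to 19496) lie above the no-inhibitor value of the same line and time, RMRP stays between 18615 and 25677, and VTRNA1-1 is highest in the WT libraries without inhibitor (1.67 and 1.95).

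To ask how polymerase III RNAs compare with polymerase II genes when topoisomerase 1 is blocked, CPT was compared with no inhibitor in 4 pairs. In WT cells, RPPH1 stood at 12221 CPM without inhibitor and 16004 with CPT at 0 h of TNFα, and at 11781 and 16894 at 1 h. In p65-deficient cells the values were 16079.6 and 19496 at 0 h, and 14040.4 and 16689 at 1 h. RPPH1 was thus higher with CPT in 4 of 4 pairs, although the p65-deficient library without inhibitor at 0 h lay above the WT library with CPT at 0 h. RPPH1 rose by 0.39 ± 0.063 on the log2 scale (SE, 4 pairs; 1.31-fold; edgeR adjusted p = 0.00046), and the pair ratios ran from 0.25 to 0.52. Without the p65-deficient pair at 0 h the rise was 0.40 (edgeR adjusted p = 0.00084).

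RMRP did not move in 1 direction. With CPT it went from 25016 to 21990.5 CPM in WT cells at 0 h and from 24002 to 24310.0 at 1 h. In p65-deficient cells it went from 23123 to 25677 at 0 h and from 20086 to 21249 at 1 h. The groups with and without CPT overlapped, and the log2 difference was 0.044 ± 0.065 (edgeR adjusted p = 0.60). Its sign turned when the p65-deficient pair at 0 h was left out (-0.014) and in the WT pairs alone (-0.072). In the p65-deficient pairs alone RMRP was higher with CPT by 0.14 (edgeR adjusted p = 0.013). That fit holds 2 pairs, and 7216 of 13700 genes passed in it. The difference of the CPT effect between the 2 lines was 0.18 ± 0.066 for RMRP (interaction, edgeR adjusted p = 0.13).

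VTRNA1-1 was counted at 36 reads without inhibitor and 11 with CPT in WT cells at 0 h, and at 34 and 6 at 1 h. In p65-deficient cells it was counted at 11 and 7 reads at 0 h, and at 6 and 1 at 1 h. The CPT libraries were lower in 4 of 4 pairs, and the intervals of the log2 ratio excluded 0 in the WT pairs (-2.52 to -0.39 and -4.23 to -1.42) but not in the p65-deficient pairs (-2.14 to 0.96 and -8.11 to 0.46). VTRNA1-1 fell by 1.65 on the log2 scale (SE 0.37, edgeR adjusted p = 0.0035), and by 1.98 without the p65-deficient pair at 0 h. The fall rests mainly on the WT libraries: it was -1.95 in the WT pairs alone, and the RNA was too low to be tested in the p65-deficient pairs alone or without the WT pair at 0 h.

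In this comparison 48.3% of 13993 genes tested passed an adjusted p of 0.05, 23.2% higher and 25.1% lower, so that 1 RNA higher and 1 lower of 3 tested is close to the share among all genes. Among 258 noncoding or other genes with at most 400 exonic bases, the class of these RNAs, 29.8% were higher and 17.8% lower. The median log2 difference over all genes was 0.024. RPPH1 lay above 88.0% of the genes tested, RMRP above 52.8% and VTRNA1-1 above 1.16%. Among 12575 protein-coding genes the response differed by genomic span: the median was 0.18 for spans over 2 to 10 kb (2550 genes, quartiles -0.077 and 0.33) and -0.13 for spans over 200 kb (717 genes). Of the 297 protein-coding genes that span at most 2 kb, 39.4% rose and 25.3% fell, with quartiles of -0.49 and 0.37. The RPPH1 value of 0.39 thus lay just above the upper quartile of both short classes of polymerase II genes, RMRP lay within their quartiles and VTRNA1-1 lay below.

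**Figure D2:**
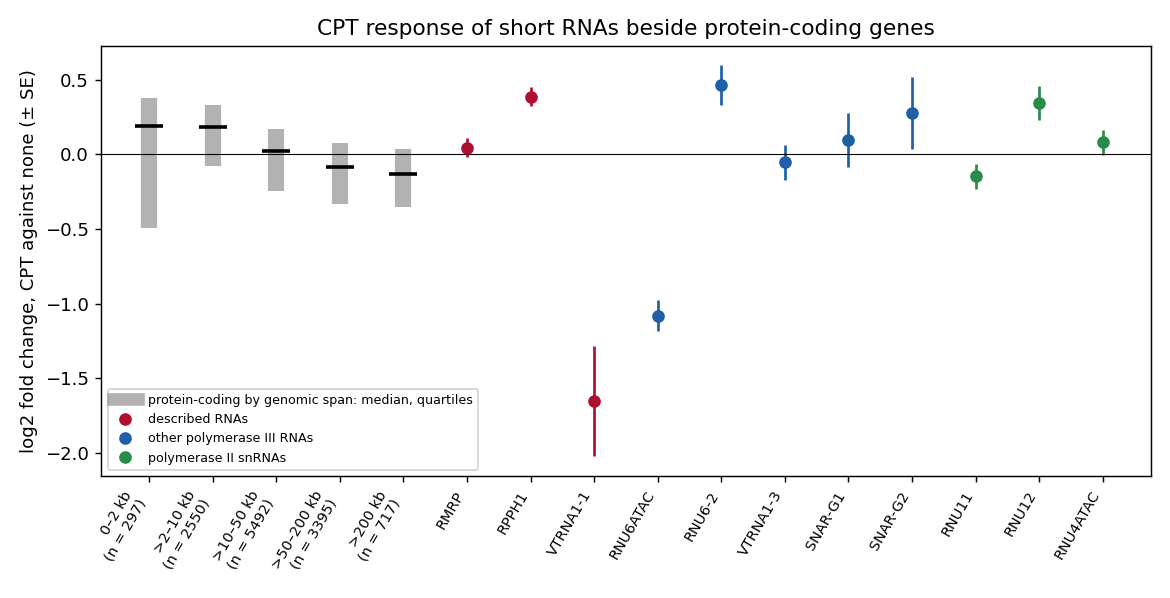
Log2 fold change of CPT against no inhibitor over 4 pairs; grey bars give quartiles and black marks medians of protein-coding genes by genomic span, points give single RNAs with SE. Medians fall from 0.19 for spans to 2 kb to -0.13 above 200 kb, RPPH1 (0.39) lies near the upper quartile of the short genes, and VTRNA1-1 (-1.65) and RNU6ATAC (-1.08) lie far below.

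The neighbours of RMRP and RPPH1 transcribed by polymerase II were set beside them, and the difference between an RNA and its neighbour was not tested. Genes that start within 1000 bp upstream on the opposite strand were sought by position, and 2 were found, which were named after their values were seen. PARP2, which encodes a poly(ADP-ribose) polymerase of DNA repair, starts 203 bp from RPPH1, and CCDC107 starts 272 bp from RMRP. PARP2 ranged from 79.5 to 90.2 CPM with CPT and from 79.6 to 90.8 without inhibitor, with a log2 difference of 0.021 ± 0.055 (edgeR adjusted p = 0.78). CCDC107 was low (11 to 44 reads), and its log2 difference of -0.15 ± 0.22 did not pass the test (edgeR adjusted p = 0.61).

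Of 43 other polymerase III RNAs listed, 19 were among the symbols and 5 were tested: 1 rose, 1 fell and 3 did not pass, near the 23.2% higher and 25.1% lower among all genes. RNU6ATAC was counted in WT cells at 494 reads without inhibitor and 175 with CPT at 0 h, and at 314 and 175 at 1 h. In p65-deficient cells it was counted at 169 and 79 reads at 0 h, and at 69 and 27 at 1 h. It fell by 1.08 on the log2 scale (SE 0.11, edgeR adjusted p = 1.0e-05), lower in 4 of 4 pairs. VTRNA1-3, which matched the B box pattern as VTRNA1-1 did, was at 55 to 197 reads with CPT and 72 to 221 without inhibitor, and its log2 difference was -0.054 ± 0.11 (edgeR adjusted p = 0.72). RNU6-2, a U6 snRNA row that sums 11 near-identical loci and is therefore uncertain, rose by 0.46 ± 0.13 (edgeR adjusted p = 0.014). The primate-specific SNAR-G1 (0.096) and SNAR-G2 (0.28) did not pass.

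The snRNAs of similar length that polymerase II makes gave 1 higher and 0 lower of 3 tested under CPT, beside 23.2% and 25.1% of all genes. RNU12, the U12 snRNA, rose by 0.34 ± 0.12 (edgeR adjusted p = 0.029), while RNU11 (-0.15) and RNU4ATAC (0.080) did not pass. The summed level of 2203 short noncoding genes of at most 200 bases, the 3 RNAs left out, was higher with CPT in 4 of 4 pairs, by 0.059 to 0.28 on the log2 scale. Its part in the RPPH1 and VTRNA1-1 results was not tested. Small nucleolar and Cajal body RNAs (360 genes) held 6639 of the 6950 CPM of this sum in WT cells without inhibitor at 0 h. On their own they were higher with CPT in 3 of 4 pairs, at log2 ratios from -0.012 to 0.20. The 2 rRNA symbols of polymerase I were listed at 0 in every library.

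**Figure D3:**
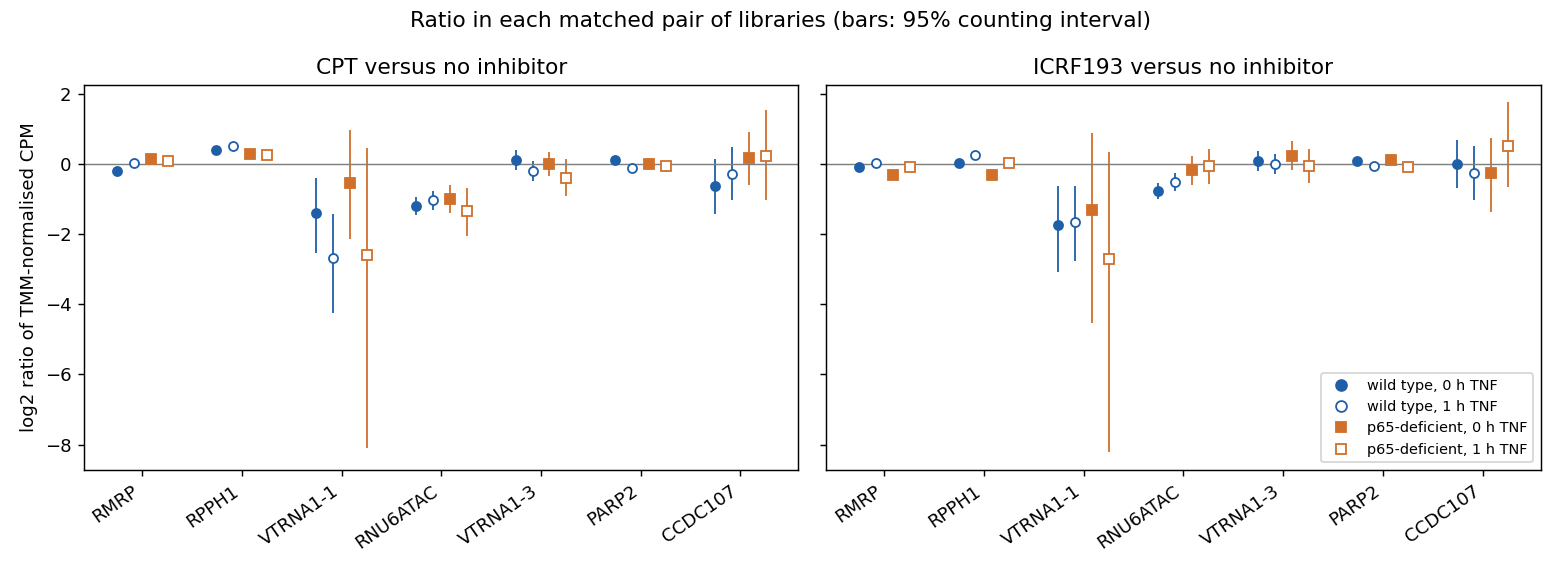
Log2 ratio of TMM-normalised CPM in each of the 4 matched pairs, CPT (left) and ICRF193 (right) against no inhibitor, with 95% counting intervals; symbols and fill give cell line and TNFα. The RPPH1 ratios with CPT lie between 0.25 and 0.52, those of VTRNA1-1 and RNU6ATAC are below 0 in all pairs of both panels, and PARP2 with CPT lies between -0.099 and 0.12.

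ICRF193 asked whether blocking topoisomerase 2 did the same, against the same libraries without inhibitor. RPPH1 with ICRF193 stood at 12369 and 13986 CPM in WT cells and at 13070.5 and 14292.0 in p65-deficient cells. These values lay within the range without inhibitor over both lines (11781 to 16080). In WT cells they lay above the values without inhibitor (12221 and 11781), and RPPH1 was higher with ICRF193 in 3 of 4 pairs. RPPH1 differed by 0.0062 ± 0.040 (edgeR adjusted p = 0.97), and without the p65-deficient pair at 0 h it was higher by 0.10 (edgeR adjusted p = 0.0013). RMRP differed by -0.10 ± 0.030 (edgeR adjusted p = 0.056), lower in 3 of 4 pairs, and by -0.042 without the p65-deficient pair at 0 h (edgeR adjusted p = 0.47). VTRNA1-1 was counted at 8 and 11 reads in WT cells and at 2 and 1 in p65-deficient cells, lower in 4 of 4 pairs, and fell by 1.70 on the log2 scale (SE 0.32, edgeR adjusted p = 0.00063), with 2.17% of all 13631 genes passing and 1.58% lower. Among the 244 noncoding or other genes with at most 400 exonic bases, 20.9% were lower with ICRF193. The intervals of the VTRNA1-1 ratio excluded 0 in the WT pairs but not in the p65-deficient pairs (-4.52 to 0.89 and -8.22 to 0.35). With either WT pair left out, VTRNA1-1 was too low to be tested, so this fall also rests mainly on the WT libraries.

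Short RNAs of polymerase II were also lower with ICRF193. RNU11 (-0.39), RNU12 (-0.60) and RNU4ATAC (-0.35) all fell, as did RNU6ATAC (-0.50, edgeR adjusted p = 0.00023). For each of these snRNAs the counting intervals were negative in the WT pairs and spanned both signs in the p65-deficient pairs. In the latter RNU12 was at 0.23 and -0.23. Of 5 other polymerase III RNAs tested with ICRF193, 1 (RNU6ATAC) was lower and 4 did not pass, beside 1.58% lower among all genes. The vault RNA VTRNA1-3 was higher with ICRF193 in 3 of 4 pairs, at log2 ratios from -0.050 to 0.24. The sum of short noncoding RNAs was lower in 4 of 4 pairs, by 0.11 to 0.36. Their part in the VTRNA1-1 result was not tested. Without the pair as a block, VTRNA1-1 no longer passed under ICRF193 (-1.59, edgeR adjusted p = 1.0), when 3 genes in all did.

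Between the inhibitors at matched dose and time, RPPH1 was higher with CPT than with ICRF193 in 4 of 4 pairs, by 0.37 ± 0.081 (edgeR adjusted p = 0.0022, with 46.4% of 13900 genes passing and 20.9% higher). Without the p65-deficient pair at 0 h this was 0.30 (edgeR adjusted p = 0.013). RMRP differed by 0.14 ± 0.096 (edgeR adjusted p = 0.26), and by 0.025 without that pair (edgeR adjusted p = 0.86). VTRNA1-1 did not pass the expression filter here, and without the filter the difference was -0.095 ± 0.56 (edgeR adjusted p = 0.92), too wide to place the 2 inhibitors in order.

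The ratio of RPPH1 to RMRP reads within a library needs no scaling between libraries. Without inhibitor it was 0.489 and 0.491 in WT and 0.695 and 0.699 in p65-deficient cells, so that the 2 times of TNFα lay closer together than the lines. With CPT it was 0.728 and 0.695 in WT and 0.759 and 0.785 in p65-deficient cells. With ICRF193 it was 0.525 and 0.575 in WT and 0.702 and 0.748 in p65-deficient cells. The ratio was higher with CPT in 4 of 4 pairs, by 0.34 ± 0.23 (mean ± SD, log2). It was higher with ICRF193 in 4 of 4 pairs, by 0.11 ± 0.088, and higher with CPT than with ICRF193 in 4 of 4, by 0.23 ± 0.18. For each of these 3 comparisons the two-sided exact sign-flip permutation test gave p = 0.125, the smallest that 4 pairs allow, and 0.156 after adjustment over 5 comparisons.

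**Figure D4:**
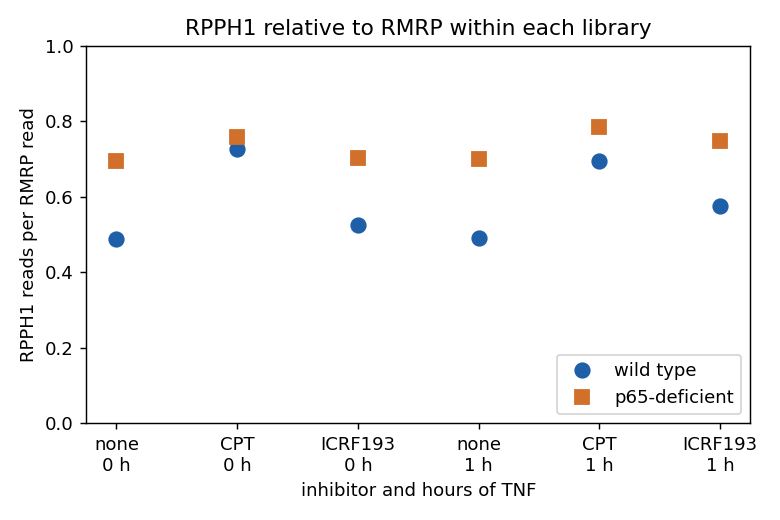
RPPH1 reads per RMRP read in each of 12 libraries (axis from 0 to 1), circles for WT and squares for the p65-deficient clone. WT values without inhibitor (0.489 and 0.491) and with CPT (0.695 and 0.728) are separate, and all 6 p65-deficient values lie above the WT value of the same treatment.

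The p65-deficient clone was compared with WT in 6 pairs. RPPH1 was higher in 5 of 6 pairs, by 0.18 ± 0.056 (edgeR adjusted p = 0.028), beside 32.1% of 13730 genes passing, 15.2% higher. This did not hold without the 0 h pair without inhibitor (0.14, edgeR adjusted p = 0.13). It also did not pass without the ICRF193 pair at 0 h (0.19, edgeR adjusted p = 0.062) or without the 1 h pair without inhibitor (0.16, edgeR adjusted p = 0.098). RMRP was lower in 5 of 6 pairs, by -0.17 ± 0.064 (edgeR adjusted p = 0.061), and passed without the CPT pair at 0 h (-0.24, edgeR adjusted p = 0.00017). The RPPH1 to RMRP ratio was higher in 6 of 6 pairs, by 0.34 ± 0.18 on the log2 scale (exact two-sided sign-flip p = 0.0312, the smallest possible, and 0.156 adjusted).

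VTRNA1-1 was lower in the clone in 6 of 6 pairs but did not pass the expression filter; without the filter the difference was -1.38 ± 0.35 (edgeR adjusted p = 0.00088). The snRNAs RNU12 (-0.67), RNU4ATAC (-1.33) and RNU6ATAC (-1.13) and the vault RNA VTRNA1-3 (-0.47) fell as well, and the short noncoding sum was lower in 6 of 6 pairs, by 0.16 to 0.58. Their part in the VTRNA1-1 difference was not tested. SNAR-G1 rose by 0.51 ± 0.15 (edgeR adjusted p = 0.016). Since the clone is a single one, p65 loss and the clone's own history cannot be told apart.

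For RPPH1 the CPT effect was 0.47 in the WT pairs and 0.28 in the p65-deficient pairs. The difference of the effects, -0.21 ± 0.060, did not pass (interaction, edgeR adjusted p = 0.059, with 4.51% of 13993 genes passing). It passed with scaling by total counts (-0.23, edgeR adjusted p = 0.022) and without the expression filter (-0.19, edgeR adjusted p = 0.0026). For VTRNA1-1 the difference was 0.94 ± 0.84 (edgeR adjusted p = 0.58).

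TNFα for 1 h, the stimulus of the study, left RMRP and RPPH1 without a call in 6 pairs (26 genes, 0.189% of 13730, passed). These pairs pool p65-deficient cells, where the paper reports TNFα induction nearly lost, and CPT, where it reports strong reduction. Without the WT pair with CPT, 102 genes passed. In the WT pairs without inhibitor and with ICRF193, RMRP ratios were -0.060 and 0.047 and RPPH1 ratios -0.053 and 0.18. An effect confined to these WT pairs is diluted in the fit over 6 pairs. RMRP differed by -0.044 ± 0.039 (edgeR adjusted p = 0.91) and RPPH1 by -0.0074 ± 0.041 (edgeR adjusted p = 0.99), each higher in 3 of 6 pairs. Without the p65-deficient pair without inhibitor, RMRP differed by -0.019 and RPPH1 by 0.023 (edgeR adjusted p = 1.0 for both). VTRNA1-1 was not tested under the filter, and without it differed by -0.047 ± 0.29 (edgeR adjusted p = 1.0). With 0.00715% of 13993 genes passing, the CPT effect at 1 h minus that at 0 h of TNFα was 0.062 ± 0.19 for RMRP, 0.046 ± 0.18 for RPPH1 and -1.56 ± 0.73 for VTRNA1-1 (edgeR adjusted p = 1 for each). In these values TNFα and a possible difference in inhibitor time cannot be told apart.

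The messenger RNAs of the proteins that make, bind or use these RNAs come from polymerase II, and they were taken as lists. Of 10 RNase P and MRP protein genes tested, 2 rose, 3 fell and 5 did not pass under CPT, near the 48.3% called among all genes, with a median of -0.041 beside 0.024 over all genes. RPP38 fell by 1.48 (SE 0.074, 2.78-fold, edgeR adjusted p = 6.9e-08) and RPP14 by 0.99 (SE 0.065, edgeR adjusted p = 5.4e-07), while POP1 fell by 0.32. POP5 rose by 0.26 and POP4 by 0.18. RPP40, RPP25, RPP30, RPP25L and POP7 lay between -0.11 and 0.062 and did not pass. The 2 enzymes share most of these proteins. The part of these messenger RNAs in the RPPH1 and RMRP values was not tested.

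Polymerase III itself gave mostly lower values: of 13 subunit genes tested, 1 rose, 10 fell and 2 did not pass, beside 23.2% higher and 25.1% lower among all genes, with a median of -0.29. POLR1C, shared with polymerase I, fell by 0.73 (SE 0.050) and CRCP by 0.48 (SE 0.066). The largest catalytic subunit POLR3A fell by 0.27 and POLR3G, an alternative to POLR3GL, rose by 0.24. Of 17 initiation factor genes, 3 rose, 7 fell and 7 did not pass, with a median of -0.12, beside 23.2% higher and 25.1% lower among all genes. BRF1, part of TFIIIB at genes with internal boxes, fell by 0.74 (SE 0.079), GTF3C4 of TFIIIC by 0.56 and SNAPC4, of the complex that binds upstream promoters, by 0.51, while BRF2, the BRF1 counterpart at upstream promoters, fell by 0.39 (SE 0.11). GTF3A, the 5S rRNA factor, rose by 0.31, MAF1, a repressor of polymerase III, by 0.20 (edgeR adjusted p = 0.0041) and GTF3C6 by 0.20.

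**Figure D5:**
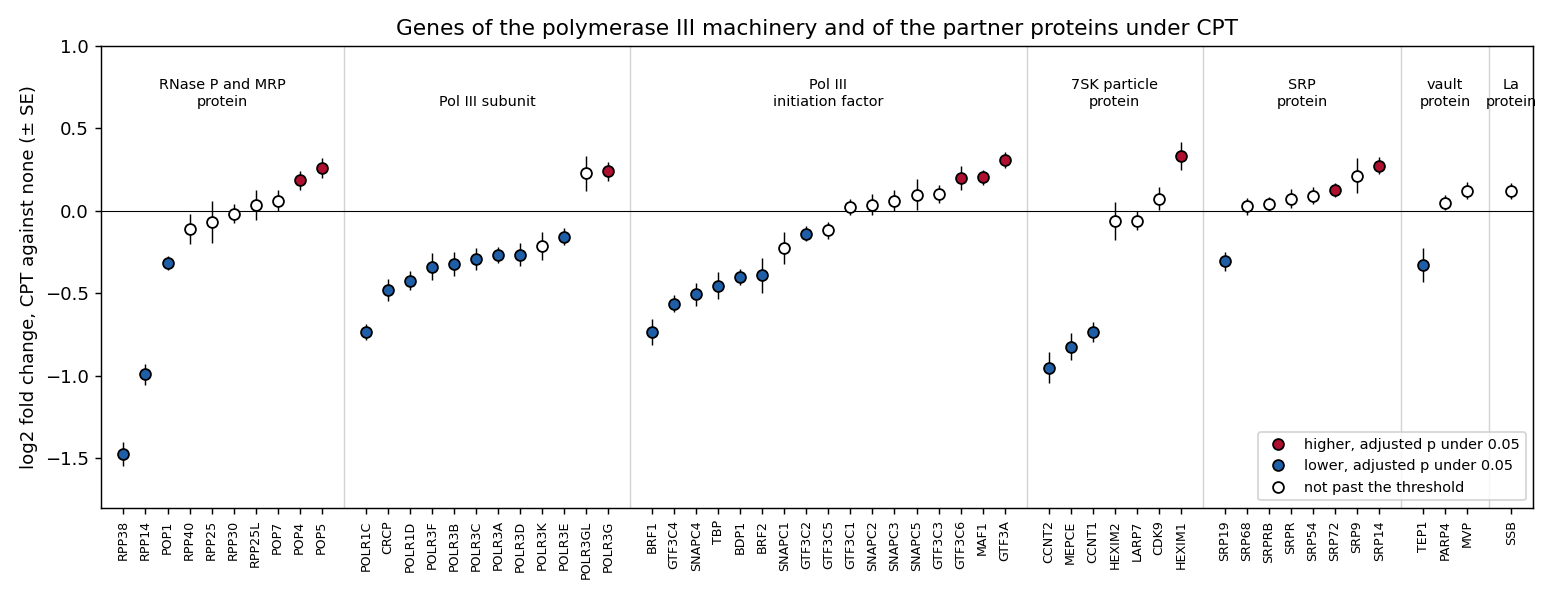
Log2 fold change of CPT against no inhibitor (± SE, 4 pairs) for tested genes of 7 lists, with 12 of the 13 polymerase III subunits shown, ordered by value within each list; filled points passed an adjusted p of 0.05. Polymerase III subunits lie mostly below 0 (10 of 13 lower), RPP38 (-1.48) is the lowest point and HEXIM1 (0.33) the highest.

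Partner proteins of the RNAs without values were read on their own, since RN7SK and the signal recognition particle RNAs were not analysed. Of 7 genes of the 7SK particle, which holds the elongation factor P-TEFb inactive, 1 rose and 3 fell under CPT, near the 48.3% called among all genes. The cyclins CCNT2 and CCNT1 fell by 0.95 (SE 0.095) and 0.73 (SE 0.059), and MEPCE, which caps 7SK, by 0.83 (SE 0.082). HEXIM1, the inhibitor in the particle, rose by 0.33 ± 0.085 (edgeR adjusted p = 0.0075), while CDK9 (0.074), LARP7 (-0.059) and HEXIM2 (-0.060) did not pass. Under ICRF193, CCNT1 rose by 0.13 ± 0.031 (edgeR adjusted p = 0.011) and the other 6 did not pass, beside 2.17% of all genes.

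Of 8 signal recognition particle genes tested, 2 rose (SRP14 by 0.27, SRP72 by 0.13), 1 fell (SRP19 by 0.31) and 5 did not pass, beside 48.3% called among all genes. Of the 3 vault protein genes, TEP1 fell by 0.33 ± 0.10 (edgeR adjusted p = 0.021), whereas MVP, the major vault protein (0.12), and PARP4 (0.050) did not pass. SSB, the La protein that binds the ends of new polymerase III transcripts, differed by 0.12 ± 0.049 (edgeR adjusted p = 0.063). With ICRF193, 0 of 13 subunit, 0 of 17 factor, 0 of 10 RNase P and MRP, 0 of 8 signal recognition particle and 0 of 3 vault protein genes passed, beside 296 genes in all by edgeR, 84 by DESeq2 and 1573 at an unadjusted p under 0.05.

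Over the 12 libraries, the genes most like RMRP among 10229 with a mean of at least 100 reads were CSNK1G2 (Pearson r = 0.982), PMPCA (0.978) and TUBA1C (0.977), by log2 CPM. Those most like RPPH1 were C14orf79 (0.942) and GCDH (0.941). RMRP and RPPH1 correlated with each other at only 0.152. These are descriptions over libraries that share cell line and treatment, with no test.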

How the data were processed

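Total RNA sequencing was analysed in 12 HCT116 libraries. The files hold unnormalized counts that the authors made by trimming reads, mapping them to hg19 and counting them on exons by gene symbol with featureCounts 1.5.0, whose command line sets neither strand nor multi-mapping. The submitters' processing notes also name Trimmomatic, STAR and deepTools. Reads from overlapping genes on opposite strands, and from near-identical copies, can therefore be misassigned or lost.

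Counts of 26364 symbols were tested with edgeR 4.0.16 (quasi-likelihood test, TMM scaling, the matched pair as a block, edgeR's expression filter with its default minimum count of 10, Benjamini-Hochberg adjustment over all genes, threshold 0.05). Standard errors are the log2 fold change divided by the root of the test statistic. Levels are TMM CPM. Intervals are 95% Clopper-Pearson. Correlations used log2 CPM with a prior count of 0.5. Protein-coding genes were taken from RefSeq biotypes by symbol (13770 of 13993 genes matched). The pipeline was tested on simulated data. Alternatives were DESeq2 1.42.0, other scalings, unfiltered genes, a fit without the block, and each pair left out.

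The RNAs described and all gene lists were chosen with earlier results of these data known. For each list the genes named are up to 3 raised and 3 lowered most by CPT among those that passed, with 1 direction in 4 pairs and a mean of at least 20 reads, and for partner proteins any gene tested. Some genes were also named outside this rule, among them POLR3A, BRF2 and short RNAs that did not pass. Transcript sequences came from GENCODE release 29 (3 of 3 matched). Of the listed genes, 46 had no row here. Some results that these rules would name are not reported here.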

Additional observations from a re-analysis of the deposited data

Results flagged for a closer look

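With 1 library per condition, outliers within groups could not be sought. Contrasts were instead searched for pairs that all moved one way in one set of libraries and all the other way in another, 2 pairs on each side, and 4 differences were found, of which the first 3 were not tested. For RMRP, CPT against ICRF193 gave a mean log2 ratio of -0.050 in WT and 0.31 in p65-deficient cells, a difference of -0.36. For RMRP, TNFα gave 0.042 with ICRF193 and -0.13 without inhibitor, a difference of 0.17. For RPPH1, TNFα gave 0.15 with ICRF193 and -0.12 without inhibitor, a difference of 0.28. For VTRNA1-1, TNFα gave -1.36 with CPT and 0.31 without inhibitor, a difference of -1.67, on 1 to 36 reads a library. This last difference is the interaction of CPT and TNFα, which was tested and did not pass (-1.56 ± 0.73, edgeR adjusted p = 1). The TNFα differences include the p65-deficient library with neither inhibitor nor TNFα. Their pairs with inhibitor may also differ in inhibitor time. A pair of p65-deficient libraries of unlike depth enters each of the 4 differences.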

How the results depend on the processing

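RPPH1 passed as higher with CPT under all 12 alternatives (0.28 to 0.47 on the log2 scale), and VTRNA1-1 passed as lower under all 10 that could test it (-1.98 to -1.20). RMRP under CPT turned to -0.072 in the WT pairs alone. It passed at 0.14 in the p65-deficient pairs alone, where 7216 of 13700 genes passed. Leaving out 1 pair at a time gave -0.014 to 0.11. RPPH1 values that had not passed turned sign: under ICRF193 (0.0062) to -0.0025 with no replicate block and to between -0.075 and 0.10 leaving out 1 pair, and under TNFα (-0.0074) to between -0.044 and 0.034 leaving out 1 pair. Under ICRF193 the count of genes passing went from 296 to 84 with DESeq2, to 3 with no replicate block and to 148 to 322 leaving out 1 pair. Under TNFα it went from 26 to 17 with total counts, 114 without the filter, 6 with DESeq2, 0 with no replicate block (70 at an unadjusted p under 0.05) and 7 to 102 leaving out 1 pair. For the clone it went from 4408 to 2043 with no replicate block. The interaction of CPT and cell line went from 631 to 1096 without the filter and 146 with DESeq2, and that of CPT and TNFα from 1 to 21 without the filter. For the clone, RPPH1 also failed with DESeq2 size factors (edgeR adjusted p = 0.055) and with no replicate block (0.17, edgeR adjusted p = 0.38). Without the filter RMRP passed under ICRF193 (-0.11), between CPT and ICRF193 (0.13), in the clone (-0.17) and in the interaction of CPT and cell line (0.20). RMRP also passed under ICRF193 with DESeq2 size factors (edgeR adjusted p = 0.046) and without the WT pair at 0 h (0.033), and in the clone with DESeq2 (adjusted p = 0.021) and without the CPT pair at 0 h. Over all values of the 3 RNAs under an alternative that gave an adjusted p, 117 kept their direction and side of the threshold, 12 newly passed, 6 lost their call and 8 turned sign. The causes were not tested. Depth limits VTRNA1-1, where 1 read moves a clone library's value most. Pairing was by treatment, since replicate numbers in the labels pair no libraries.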
